A study of Mus musculus with 48 samples.

Results

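Prefoldin is a cytosolic co-chaperone built from 6 different subunits, and 5 of its genes are described here in the liver and colon of mice whose dams and own diets differed in selenium and folate. The members are *Pfdn1*, *Pfdn2*, *Pfdn4*, *Pfdn5* and *Vbp1*, which encodes the subunit also known as prefoldin 3. Every probe whose accession belonged to one of these symbols was taken, which gave 7 probes, 1 each for *Pfdn1*, *Pfdn2* and *Pfdn4* and 2 each for *Pfdn5* and *Vbp1*. They are 5 of 18434 genes that could be named on the array, through 27050 named probes. The 5 genes were chosen from earlier results of these data, among them the liver difference for which the study names *Pfdn1*. Liver differences between diets are therefore given as a description without a test. *Pfdn6*, which encodes the sixth subunit, was not among the members and is given beside them, with 1 probe.

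The samples came from C57/BL6 offspring at 12 weeks of age. Dams ate a diet high (H) or low (L) in selenium and folate from before mating to the end of lactation, and the pups ate diet H or L after weaning. The study describes diet H as supplemented, above recommended requirements, and diet L as only marginally deficient. In the group names HH, HL, LH and LL the dam's diet comes first and the offspring's own diet second, and in the study all these diets were high in fat. Liver RNA came from 5 HH mice and 6 mice of each other group, since 2 HH arrays carry the same animal, and colon RNA from 6 mice of each group. On each of 48 arrays the mouse RNA carried the dye Cy3 and a reference shared by all arrays carried Cy5, and dyes were never swapped. Each of 12 slides held 1 array of each diet group, all of one tissue. Sources differ on that reference, which the study's methods call a pool of the intestinal and liver RNA of these mice and the deposited description traces to a pregnant mouse with its foetus. RNA came from bulk tissue, so fewer cells of a type cannot be told apart from less RNA in each cell.

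All 7 member probes and the *Pfdn6* probe were well above background in Cy3 on 48 of 48 arrays, and none was saturated. In the RefSeq annotation of build GRCm38.p6 *Pfdn1* lies on chromosome 18 from 36403679 to 36454495, *Pfdn2* on chromosome 1 from 171344954 to 171359254 and *Pfdn4* on chromosome 2 from 170496428 to 170519070. *Pfdn5* lies on chromosome 15 from 102326116 to 102331490, *Pfdn6* on chromosome 17 from 33938909 to 33940343 and *Vbp1* on chromosome X from 75514297 to 75534946. In the files each probe has an accession but not its place in the transcript, so exons and untranslated regions were not assigned.

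Prefoldin takes hold of newly made actin and tubulin chains and passes them to the chaperonin TRiC (also called CCT), a ring of 8 related subunits in which these proteins fold. The complex has beta-type subunits (*Pfdn1*, *Pfdn2*, *Pfdn4* and *Pfdn6*) and alpha-type subunits (*Vbp1* and *Pfdn5*), each with a coiled-coil arm that binds the client chain. *Pfdn5* is also known as MM-1, a partner of Myc, and *Vbp1* as a protein that binds the von Hippel-Lindau tumour suppressor. Relatives of these subunits sit in a second complex with the scaffold *Uri1* and the helicases *Ruvbl1* and *Ruvbl2*.

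The stretches upstream of *Pfdn5* and *Vbp1* are printed because the liver values of the brighter probes of these alpha-type subunits were correlated among mice, as described further on. Each is the 250 bases before the RefSeq start on GRCm38.p6, on the plus strand, at chr15:102325866-102326115 for *Pfdn5* and at chrX:75514047-75514296 for *Vbp1*. Capitals mark matches on either strand to any of 5 motifs, which are CCAAT (the box bound by NF-Y), GGGCGG (the GC box of Sp factors), CGGAAG (a core bound by ETS factors), CACGTG (the E-box of Myc, its own reverse complement) and TGACG (the core of the cAMP response element).
Pfdn5: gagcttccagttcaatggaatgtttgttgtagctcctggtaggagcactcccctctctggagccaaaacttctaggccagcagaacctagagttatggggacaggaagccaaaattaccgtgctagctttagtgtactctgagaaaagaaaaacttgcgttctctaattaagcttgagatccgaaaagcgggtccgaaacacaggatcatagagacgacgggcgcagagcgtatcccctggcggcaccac
Vbp1: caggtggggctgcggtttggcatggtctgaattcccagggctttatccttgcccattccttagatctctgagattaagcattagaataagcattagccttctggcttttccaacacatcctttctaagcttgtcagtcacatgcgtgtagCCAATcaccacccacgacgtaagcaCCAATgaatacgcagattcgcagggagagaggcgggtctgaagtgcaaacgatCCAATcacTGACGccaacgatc
The *Vbp1* stretch held CCAAT at 3 places, 100, 75 and 22 bases before the start, and TGACG at 14 bases, with no overlap between matches. The *Pfdn5* stretch held none of these motifs. Of 32851 promoters cut to the same length, 33.8% held the CCAAT box, 32.7% the GC box, 13.6% the ETS core, 6.02% the E-box and 17.8% the TGACG core. GC content was 50% for *Pfdn5* and 49.6% for *Vbp1*, against a median of 52.4%.

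Several facts of the whole series touch the values below. The share of spots well above background in Cy3 was 55.1 to 66% on liver arrays and 66.8 to 73.7% on colon arrays. On 4 arrays (liver HH replicate 2, liver HL replicates 5 and 6, colon HH replicate 1) the log2 ratios of all probes had SDs of 0.53 to 0.611, which rose to 0.811 to 0.944 when local backgrounds brighter than their spots were replaced. Values with that repair are given beside the results it moved most. Hepatocyte genes were higher in liver than in colon ratios, such as *Alb* by 5.00 and *Apoa1* by 6.38 on the log2 scale, so the ratios run as mouse over reference. Pearson correlations between liver and colon arrays over all probes were -0.0119 to 0.172. Liver HL replicate 1 carried a mean log2 ratio of 1.16 over 6 pancreatic acinar genes, against -1.45 or lower in every other liver mouse. *Xist*, a transcript of female cells, was above a log2 Cy3 of 10 in 6 mice (5 colon, 1 liver), although the study describes males, and *Vbp1* is on the X chromosome. Without those mice the colon *Vbp1* differences from HH went from -0.01 to 0.00 in LH, from -0.10 to -0.05 in HL and from -0.06 to -0.05 in LL. In the liver, where the mouse was in HL, HL minus HH of *Vbp1* went from -0.03 to 0.00.

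In the liver *Pfdn1* and *Pfdn5* were lower in LH than in HH mice, *Vbp1* was slightly lower, and *Pfdn2* and *Pfdn4* were close to HH. Of the 5 members 4 were lower and 1 higher in LH, with a median log2 difference of -0.20 against -0.01 over all probes. Under median centring the count was 3 lower and 2 higher. There the median difference of probes with a mean log2 Cy3 over 9 was 0.22. *Pfdn4*, which is dimmer than that, went from -0.01 to -0.12. In the limma fit of the liver none of 41171 probes had a fold change over 1.5 with FDR under 0.05 (0%), and 4359 of them had an unadjusted p under 0.05 for LH against HH. The lowest limma adjusted p of that comparison was 0.0555. The study's own analysis, at the same thresholds, does report differing probes for HH against LH, more than for any other liver comparison it lists. Why the counts differ was not tested. The HH and LH mice overlapped for 5 of 5 members, where 1.22% of all probes did not overlap. The direction of *Pfdn1* is opposite to that in the study's own gene table, which lists it as higher in LH. The deposited ratios run as reference over mouse and were turned here. Over all spots their r to mouse over reference ratios without background correction was -1 to -0.9997. Against the background-corrected ratios used here it was -0.999 to -0.8647.

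*Pfdn1*, a beta-type subunit, had log2 ratios of 0.63, 0.03, -0.13, 0.18 and 0.26 in the 5 HH mice. The 6 LH mice ran from -0.76 over a median of -0.53 to 0.11. LH mice were mostly below HH mice, and 1 LH mouse (replicate 4) lay among them. The mean was 0.19 ± 0.29 (SD, n = 5) in HH and -0.44 ± 0.32 (SD, n = 6) in LH, a difference of -0.63 ± 0.23 (SE), or 1.55-fold.

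The HL and LL mice filled the space between these groups for *Pfdn1*. HL mice ran from -0.57 over -0.15 to 0.83, with a mean of -0.07 ± 0.49 (SD, n = 6), and LL mice from -0.74 over 0.02 to 0.55, with a mean of -0.04 ± 0.46 (SD, n = 6). Both groups spanned almost the whole range seen in the liver. LL was 0.40 ± 0.22 (SE) above LH, and the interaction of both feeding periods was 0.66 ± 0.32 (SE) on the log2 scale. Leaving out HL replicate 1, the mouse with the pancreatic genes and the highest *Pfdn1* ratio, moved HL minus HH from -0.26 to -0.44, and it was -0.16 without HL replicate 3 and -0.15 without HH replicate 1. With the repaired background HL minus HH was -0.35 and the interaction 0.76.

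*Pfdn2*, the beta-type subunit with the highest liver ratios among the members, had values of 0.34, 0.46, 0.24, 0.07 and 0.63 in HH and ran from 0.34 over 0.49 to 0.54 in LH. The LH mice lay close together inside the HH range. The means were 0.35 ± 0.21 (SD, n = 5) and 0.47 ± 0.07 (SD, n = 6), a difference of 0.12 ± 0.10 (SE). HL and LL means were 0.41 and 0.40, so no liver group stood apart for this subunit.

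*Pfdn4*, another beta-type subunit and the dimmest of the members (median log2 Cy3 of 6.77 in liver), had liver values of 0.19, 0.01, 0.29, -0.16 and 0.30 in HH. LH mice ran from -0.29 over 0.16 to 0.54. The LH mice covered the HH range and reached beyond both of its ends, and LH minus HH was -0.01 ± 0.13 (SE). The group means of *Pfdn4* lay between 0.06 in HL and 0.22 in LL.

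*Pfdn5*, an alpha-type subunit, was the member with 2 probes that both differed in LH. On the brighter probe the HH mice had values of 0.00, -0.02, 0.61, 0.56 and 0.30, and the LH mice ran from -0.44 over -0.15 to 0.07. HH split into 3 mice above all LH mice and 2 among the upper ones. The difference was -0.45 ± 0.13 (SE) on the brighter probe and -0.38 ± 0.13 (SE) on the dimmer one.

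LL mice were low for *Pfdn5* as well. They ran from -0.30 over -0.12 to 0.05 on the brighter probe, which put LL at -0.40 ± 0.13 (SE) relative to HH, against -0.26 ± 0.13 (SE) on the dimmer probe. HL mice lay in between at -0.19 ± 0.13 (SE) on the brighter probe, and 1 of them (replicate 4) reached 0.65, apart from the other HL mice. LL and LH differed by 0.05 ± 0.13 (SE), less than the spread between mice. HH is the shared control of these 3 differences.

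*Vbp1*, the other alpha-type subunit, had values of -1.1, -1.06, -0.42, -0.84 and -1.23 in HH and ran from -1.36 over -1.08 to -0.99 in LH on its brighter probe. One HH animal, the mouse measured on 2 arrays, was well above the rest, with -0.45 and -0.40 on its arrays. LH minus HH was -0.20 ± 0.12 (SE) on the brighter probe, -0.06 ± 0.13 (SE) on the dimmer one, and -0.07 on the brighter probe without that animal. The same animal had the highest HH value of *Pfdn5*, with 0.69 and 0.53, and leaving it out put LH minus HH of *Pfdn5* at -0.37.

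The sixth subunit, *Pfdn6*, showed 0.56 ± 0.25 (SD, n = 5) in HH and 0.57 ± 0.19 (SD, n = 6) in LH, with HL at 0.48 and LL at 0.64. Its difference between LH and HH was 0.01 ± 0.11 (SE). Within the complex the liver differences of LH from HH thus ran from -0.63 for *Pfdn1* to 0.12 for *Pfdn2*, with both signs among the beta-type subunits.

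**Figure D1:**
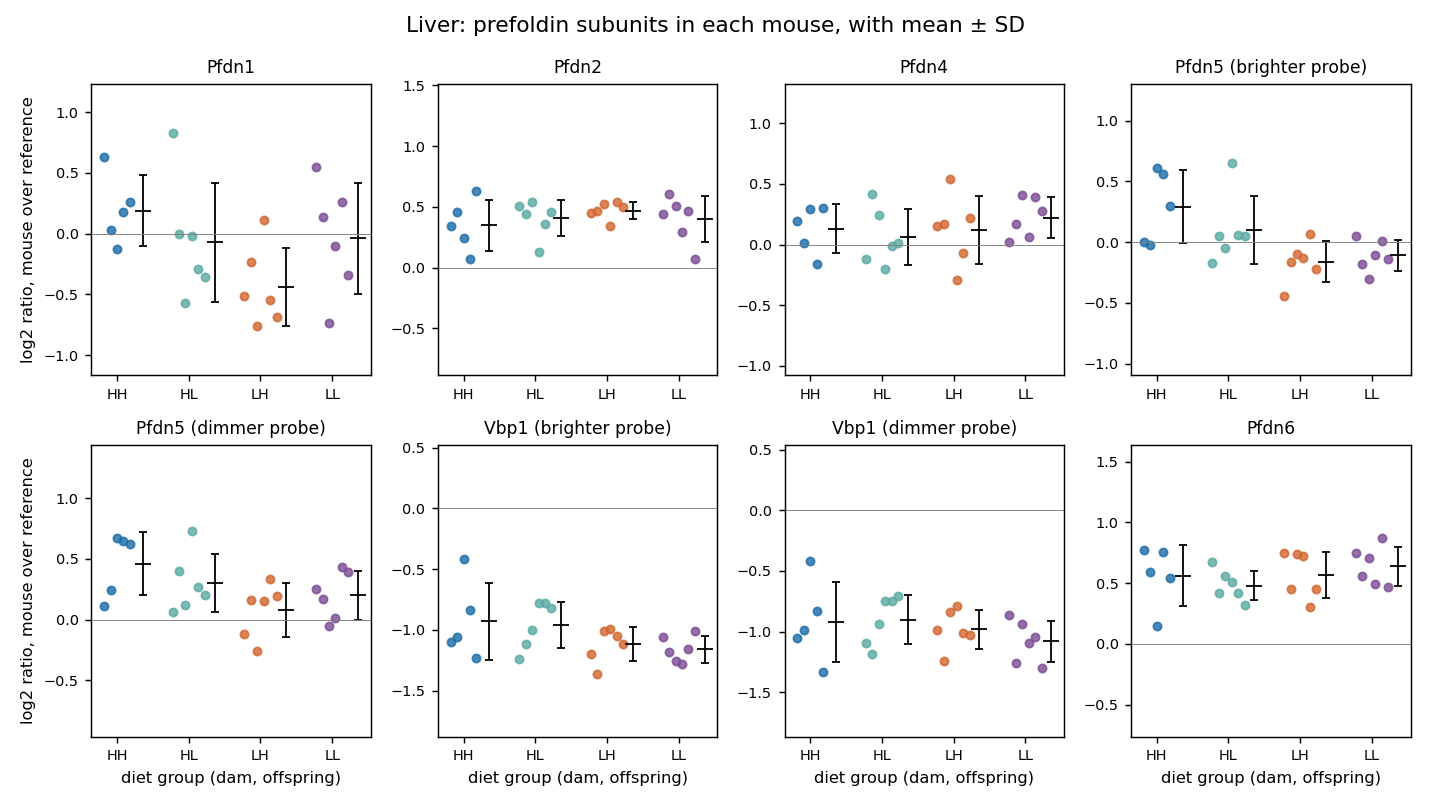
Log2 ratio of mouse over reference (vertical axis) for each probe of the prefoldin subunits in each liver mouse, by diet group (horizontal axis, dam then offspring diet). Points are mice, bars are mean ± SD, n = 5 for HH and 6 for the other groups, and each panel spans the same number of log2 units. The LH points of *Pfdn1* (-0.76 to 0.11) and of both *Pfdn5* probes lie mostly below the HH points, while *Pfdn2*, *Pfdn4* and *Pfdn6* show no such shift.

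Because each slide carried all diet groups, LH and HH arrays could be set side by side on the same slide. *Pfdn1* was lower in LH on 6 of 6 liver slides, with differences of -1.15 to -0.07 and a median of -0.60, and both *Pfdn5* probes were lower on 6 of 6, with medians of -0.57 and -0.39. Of all probes 3.51% were lower in LH on every liver slide. *Vbp1* was lower on 5 of 6 slides on the brighter and 3 of 6 on the dimmer probe, *Pfdn4* on 4 of 6 and *Pfdn2* on 1 of 6. The animal on 2 arrays serves as HH on 2 of these slides. With slide as a term in the fit the difference was -0.56 ± 0.15 (SE) for *Pfdn1* and -0.45 ± 0.11 (SE) for *Pfdn5*. All of this comes from the liver values known when the members were chosen, so it is a description and no separate support.

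The liver difference lay in the mouse channel. From the Cy3 signal alone LH minus HH was -0.68 ± 0.24 (SE) for *Pfdn1* and -0.46 ± 0.13 (SE) for *Pfdn5*. From the Cy5 signal of the reference it was -0.08 ± 0.08 (SE) and -0.01 ± 0.07 (SE). With the repaired background the ratio differences were -0.66 and -0.46.

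Mean levels of cell type markers differed between the same liver groups, and 0 of the marker genes passed the test. The mean log2 ratio of 6 hepatocyte genes, all well above background on every liver array, was 1.82 in HH (1.65 to 1.95) and 2.16 in LH (1.89 to 2.35). Cycling genes were at -1.77 in HH (-2.14 to -1.06) and -2.20 in LH (-2.47 to -1.82), and erythroid genes at 0.46 (0.28 to 0.58) and 0.23 (0.14 to 0.35). The median difference of the 6 cycling genes was -0.43, and -0.27 with the repaired background, where 4 in place of 1 had an unadjusted p under 0.05. Over all 41171 probes 4.93% were lower and 5.66% higher at that threshold. These were 4359 probes in all, and 4934 with the repaired background. Only 4 of the 6 cycling and 3 of the 4 erythroid genes were well above background on every liver array. Pancreatic acinar genes were at -2.54 in HH (-3.06 to -1.97) and -3.03 in LH (-3.22 to -2.74), with a median difference of -0.55, or -0.40 with the repaired background. Colon epithelium and smooth muscle genes were far below the reference in every liver group, at -3.82 or lower and -2.86 or lower. Their part in the differences of the members was not tested.

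In the colon the diet groups hardly differed for any prefoldin subunit. None of the 5 members was called in any comparison, as was none of 41173 probes in the limma fit (0%), of which 2959 had an unadjusted p under 0.05 for LH against HH (1335 with the repaired background). Member differences between LH and HH ran from -0.18 to 0.07. Of the 5 members 3 were lower, 1 higher and 1 at 0.00, against 2 lower and 3 higher under each of the 6 other scalings. No member's LH and HH mice were apart, where 0.427% of all probes were. The replicates of a group are separate mice on separate slides. Adjusted p-values from the fit without slide thus measure the spread between mice and between slides together.

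*Pfdn4* was the member with the lowest unadjusted p in the colon. Its HH mice ran from -0.19 over -0.03 to 0.09 and its LH mice from -0.43 over -0.25 to 0.05, with 2 LH mice, at -0.14 and 0.05, inside the HH range. LH minus HH was -0.18 ± 0.07 (SE, limma unadjusted p = 0.0219, adjusted p = 0.641) and LL minus HH -0.15 ± 0.07 (SE, limma unadjusted p = 0.0485, adjusted p = 1). The background shares of probes lower at an unadjusted p under 0.05 were 3.52% and 3.05%, and 1 of 5 members fell under that threshold in each comparison.

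*Pfdn4* was lower in LH on 6 of 6 colon slides, by a median of -0.14, where 2.87% of all probes were lower on every slide. The block fit with slide gave the same difference with an adjusted p of 0.258. In Cy3 alone the difference fell to -0.06 ± 0.04 (SE), and the Cy5 reference differed by 0.09 ± 0.09 (SE) in the opposite direction, so the mouse channel held the smaller part of the ratio difference. *Pfdn6* was lower in LH on 6 of 6 colon slides as well, with a difference of -0.11 ± 0.10 (SE, limma adjusted p = 0.863, and 0.344 with slide as a term). *Pfdn4* is dim in this tissue too, with a median log2 Cy3 of 7.33.

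*Pfdn1* in the colon showed -0.11 ± 0.35 (SD, n = 6) in HH and -0.16 ± 0.29 (SD, n = 6) in LH. The difference was -0.05 with a 95% interval of -0.44 to 0.34 (limma adjusted p = 0.98), an interval wide enough to hold changes of either sign. *Pfdn2* differed by 0.07 (-0.20 to 0.34, limma adjusted p = 0.956) and *Vbp1* by -0.01 (-0.17 to 0.15, limma adjusted p = 0.986). *Pfdn5* differed by 0.00 (-0.27 to 0.27, limma adjusted p = 0.999) on the brighter and by 0.08 (-0.22 to 0.37, limma adjusted p = 0.955) on the dimmer probe.

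The dam diet difference was also set against itself between tissues. For LH minus HH, liver minus colon was -0.58 ± 0.30 (SE) for *Pfdn1*, -0.46 ± 0.19 (SE) and -0.46 ± 0.20 (SE) for the *Pfdn5* probes, and -0.18 ± 0.14 (SE) and -0.02 ± 0.15 (SE) for the *Vbp1* probes. It was 0.05 ± 0.17 (SE) for *Pfdn2*, 0.17 ± 0.15 (SE) for *Pfdn4* and 0.11 ± 0.15 (SE) for *Pfdn6*. These values use the liver difference by which members were chosen and are given without a test.

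**Figure D2:**
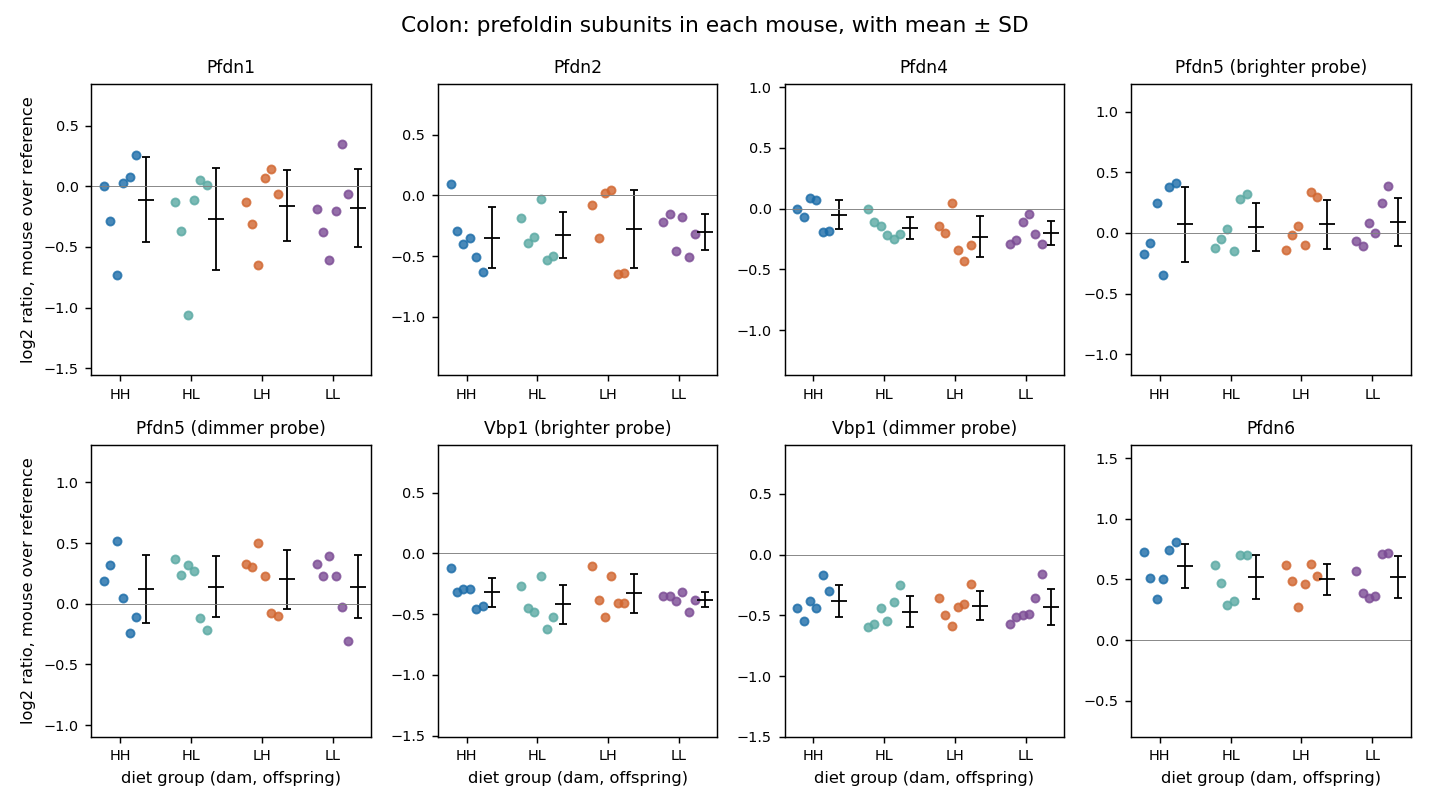
Log2 ratio of mouse over reference (vertical axis) for each probe of the prefoldin subunits in each colon mouse, by diet group (horizontal axis). Points are mice, bars are mean ± SD, n = 6 per group. All groups overlap in every panel, with *Pfdn4* means from -0.23 in LH to -0.05 in HH.

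**Figure D3:**
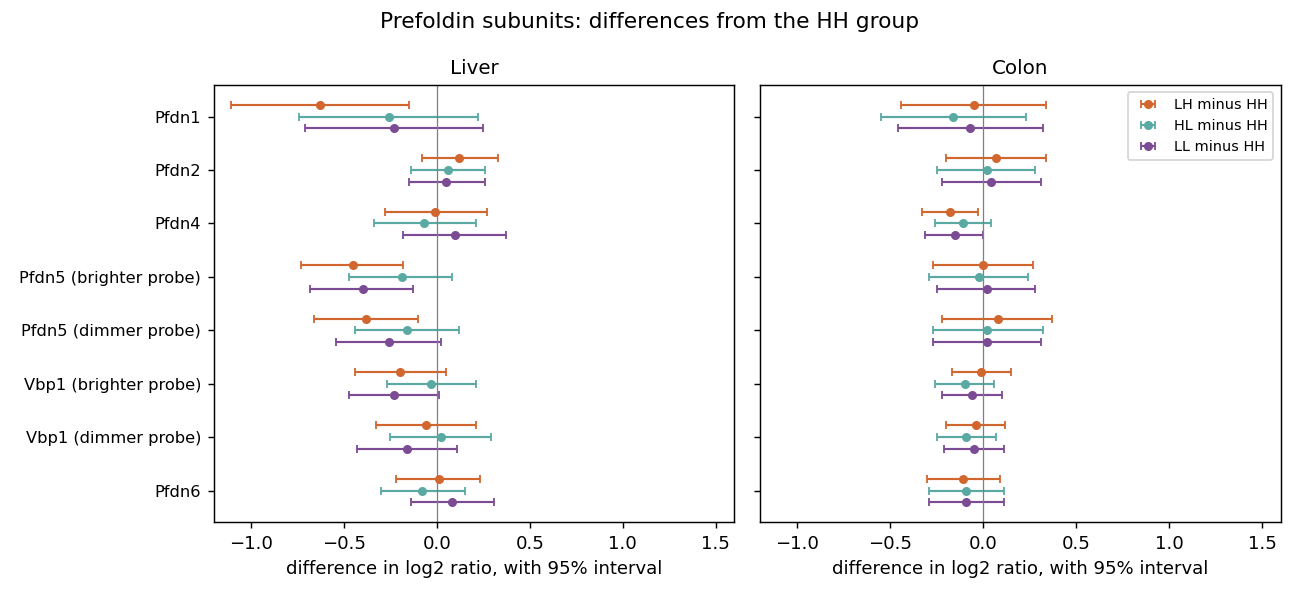
Differences of LH, HL and LL from HH in log2 ratio (horizontal axis) with 95% intervals from the limma fit, for each prefoldin probe in liver (left) and colon (right). HH is shared by the 3 differences of a panel. *Pfdn1* and *Pfdn5* lie left of 0 in the liver for LH, while all colon points lie between -0.18 and 0.08.

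The 2 probes of a gene should follow the same transcript from mouse to mouse, and in the colon those of *Pfdn5* did not. In the liver their log2 ratios correlated with a Pearson r of 0.85 over 23 mice, and those of the *Vbp1* probes with 0.81. In the colon r was -0.64 for *Pfdn5* and -0.22 for *Vbp1* over 24 mice. These correlations are descriptions, over mice that share slides and a reference.

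The colon values fell into sets of slides. On slides 11 and 12 the brighter *Pfdn5* probe had ratios of 0.25 to 0.41 and the dimmer one of -0.31 to -0.03. On slides 7 to 10 the brighter probe had -0.35 to 0.25 and the dimmer one 0.05 to 0.52. The probes thus traded places between the sets, and each set holds all 4 diet groups. Among the 16 mice of slides 7 to 10 the probes correlated with 0.83 for *Pfdn5* and 0.49 for *Vbp1*, a split of slides chosen after the values were seen.

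The shift lay in the reference channel. Cy5 signal of the brighter *Pfdn5* probe was 12.75 to 13.08 on slides 11 and 12 and 13.21 to 13.53 on slides 7 to 10, while that of the dimmer probe was 11.27 to 11.65 and 10.77 to 11.04. The Cy3 means differed far less between these sets, at 12.19 and 12.23 for the brighter and 10.09 and 9.99 for the dimmer probe, and in Cy3 alone the probes correlated with 0.61 over all 24 mice. *Pfdn1* Cy5 was also lower on slides 11 and 12 (mean 10.94 against 11.41) and *Pfdn2* Cy5 higher (12.30 against 11.93). The lowest *Pfdn1* slide mean of the colon ratios, -0.76, was on slide 9, outside slides 11 and 12. On slide 9 *Pfdn1* Cy5 was 11.33 to 11.45, within the 11.27 to 11.58 of slides 7 to 10. Cy3 there was 9.18 to 9.47, the low end of the 9.18 to 10.29 of those slides. Over all probes the median difference in Cy5 between the sets was 0.00, and 13.4% of 41174 probes differed by over 0.4 in size. What sets these slides apart was not tested.

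Slide held most of the colon variance of the members. It took 87.1% for *Pfdn1*, 89% and 90% for the *Pfdn5* probes, 64.2% for *Pfdn2*, 65.4% and 68.6% for the *Vbp1* probes and 37.3% for *Pfdn4*, against a median of 36.5% over all probes. Diet took 0.397% to 10.4% for these probes apart from *Pfdn4*, at 27%, against a median of 9.09%. In the liver slide took 48.9% for *Pfdn1* and 18.3% for the brighter *Pfdn5* probe, and diet 24.9% and 47.2%, against medians of 23.1% for slide and 13.7% for diet. With slide as a term the standard error of the *Pfdn1* difference between LH and HH in the colon fell from 0.19 to 0.07, and the adjusted p was 0.818.

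**Figure D4:**
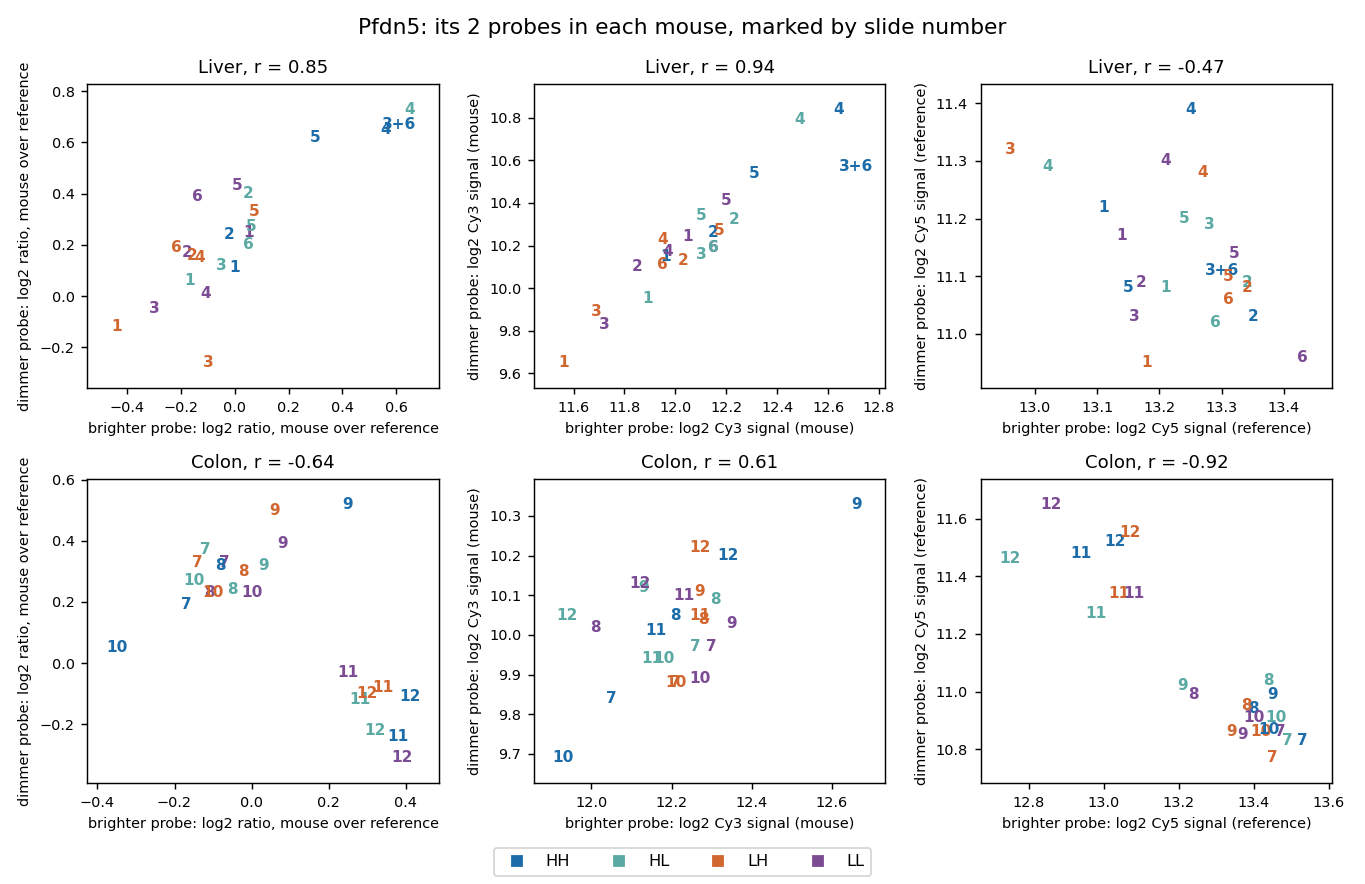
The brighter (horizontal axis) against the dimmer *Pfdn5* probe (vertical axis) in each mouse, as log2 ratio, log2 Cy3 signal and log2 Cy5 signal, in liver (top) and colon (bottom). Numbers are slides, colours are diet groups, and r is Pearson's over mice. In the colon slides 11 and 12 stand apart in the ratio (r = -0.64) and in Cy5 (r = -0.92), and less so in Cy3 (r = 0.61).

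Members differed between tissues in opposite directions. *Vbp1* was lower in liver, with a log2 difference of liver minus colon of -0.68 (95% interval -0.78 to -0.58) on the brighter probe and -0.55 (-0.65 to -0.44) on the dimmer one, a 1.6-fold and a 1.46-fold difference. *Pfdn2* was higher in liver by 0.72 (0.60 to 0.84), or 1.65-fold, and *Pfdn4* by 0.29 (0.18 to 0.39). *Pfdn1* at 0.09 (-0.12 to 0.31) and *Pfdn6* at 0.03 (-0.08 to 0.13) were close to 0. *Pfdn5* was at -0.04 (-0.18 to 0.09) on the brighter and 0.11 (-0.03 to 0.25) on the dimmer probe. The colon ratios of both *Pfdn5* probes carry the slide sets described above. Under median centring *Vbp1* was at -1.31 and *Pfdn2* at 0.11, where probes with a mean log2 Cy3 over 9 had a median of -0.60. There *Pfdn4* was at 0.08, *Pfdn5* at -0.60, and *Pfdn1* turned to -0.56.

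*Vbp1* ratios on the brighter probe ran from -1.36 over -1.06 to -0.42 in 23 liver mice and from -0.62 over -0.38 to -0.10 in 24 colon mice. Only the HH animal on 2 arrays reached into the colon range. *Pfdn2* ran from 0.07 over 0.46 to 0.63 in liver and from -0.65 over -0.35 to 0.09 in colon, touching at the ends. Of all probes 17% did not overlap between the tissues. Tissues were on separate slides and cannot be told apart from them. With slide as a random block the standard errors were 0.06 for *Vbp1* and *Pfdn2*. That fit used a within-slide correlation of 0.14 for every probe. The correlations of these probes themselves were higher, at 0.31 for *Vbp1* and 0.48 for *Pfdn2*, so these standard errors may be too small. In Cy3 alone the differences were -0.69 for *Vbp1* and 0.81 for *Pfdn2*.

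The order of the 8 group means followed tissue for *Vbp1*, *Pfdn2* and *Pfdn4*. *Vbp1* went from -0.32 in colon HH through -0.33, -0.38 and -0.42 in colon LH, LL and HL to -0.93, -0.96, -1.12 and -1.16 in liver HH, HL, LH and LL, with the one step larger than the SDs lying between the tissues. *Pfdn2* went from 0.47 in liver LH to 0.35 in liver HH and then from -0.28 in colon LH to -0.35 in colon HH. *Pfdn4* went from 0.22 in liver LL to 0.06 in liver HL (SD 0.23). It then went from -0.05 in colon HH (SD 0.12) to -0.23 in colon LH. For *Pfdn1* the tissues were mixed, from 0.19 in liver HH through liver LL at -0.04 and HL at -0.07 and the 4 colon groups at -0.11 to -0.27 down to -0.44 in liver LH, and no neighbours in this order were further apart than their SDs.

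Among liver mice the alpha-type subunits *Pfdn5* and *Vbp1* went together, with a Pearson r of 0.71 over 23 mice between their brighter probes, 0.62 after taking out diet means and 0.50 in Cy3 alone. It was 0.46 and 0.52 between a brighter and a dimmer probe and 0.15 between both dimmer probes, so the relation depended on the probe, and in the Cy5 reference the brighter probes had an r of -0.64. With *Pfdn2* the ratios of *Pfdn5* and *Vbp1* had r of -0.50 and -0.51, which were -0.45 and -0.11 in Cy3 alone and -0.55 and 0.64 in Cy5. Over brighter probes *Pfdn1* had r of 0.26 with *Pfdn5*, -0.08 with *Vbp1*, -0.11 with *Pfdn2* and -0.35 with *Pfdn4*. In the colon *Pfdn5* and *Vbp1* had an r of -0.63, and *Pfdn1* and *Pfdn6* of 0.78, which were -0.46 and 0.66 on slides 7 to 10.

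The genes most like a member over liver mice were named from 12245 genes well above background on all liver arrays. For *Pfdn1* they were *Rif1*, *Upf3b* and *Dnmt3a*, each with an r of 0.90. *Pfdn5* was most like 1600029O15Rik (0.85), *Prorsd1* (0.85) and *Smim15* (0.84), and *Vbp1* most like *Cetn2* (0.87), *Serpinb6a* (0.87) and *Lpcat2* (0.86). *Pfdn2* reached 0.74 with *H6pd*, 0.67 with *Xylb* and 0.66 with *Ell2*, and *Pfdn4* 0.77 with *Mrpl17*, 0.75 with *Trmt10a* and 0.73 with *Saal1*. Members and *Pfdn6* were left out of the genes searched, so these lists do not show how like one another the members are.

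In the colon, over 14240 genes, *Pfdn1* was most like *H4c14* (0.92), *Zfp148* (0.91) and *Arid5b* (0.90), *Pfdn2* most like *Hbs1l* (0.93), *Rrp15* (0.91) and *Pigs* (0.89), and *Pfdn5* most like *Eif3k*, *Pcbp2* and *Fbxw2* (0.93 each). *Pfdn4* reached 0.76 with *Tmem33*, 0.73 with *Vezt* and 0.71 with *Mrps2*, and *Vbp1* 0.87 with *Prps1l3*, 0.87 with *Ube2v2* and 0.85 with *Arl6ip6*. These colon values carry the slide sets described above.

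The chaperonin TRiC, which receives the chains that prefoldin carries, had higher ratios in LH than in HH in the liver for most of its genes. Of 8 TRiC genes 6 were higher in LH than in HH and 2 lower, with a median log2 difference of 0.22 against -0.02 over all named genes, and 0 of 8 passed the test or an unadjusted p under 0.05 (1 of 8 with the repaired background). Under median centring 8 of 8 were higher. *Cct6a* was at 0.62 ± 0.32 (SE, limma adjusted p = 0.504), *Cct4* at 0.41 ± 0.22 (SE, limma adjusted p = 0.527) and *Cct2* at 0.18 ± 0.10 (SE, limma adjusted p = 0.513). In the colon 8 of 8 were lower (6 of 8 under median centring), with a median of -0.13 and -0.10 with the repaired background, and 1 of 8, *Cct8* at -0.18 ± 0.08 (SE, limma adjusted p = 0.686), had an unadjusted p under 0.05. Between tissues TRiC genes ran from -0.43 for *Cct4* to 0.74 for *Cct6a* in liver minus colon, with 2 of 8 higher in liver (1 of 8 under median centring).

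**Figure D5:**
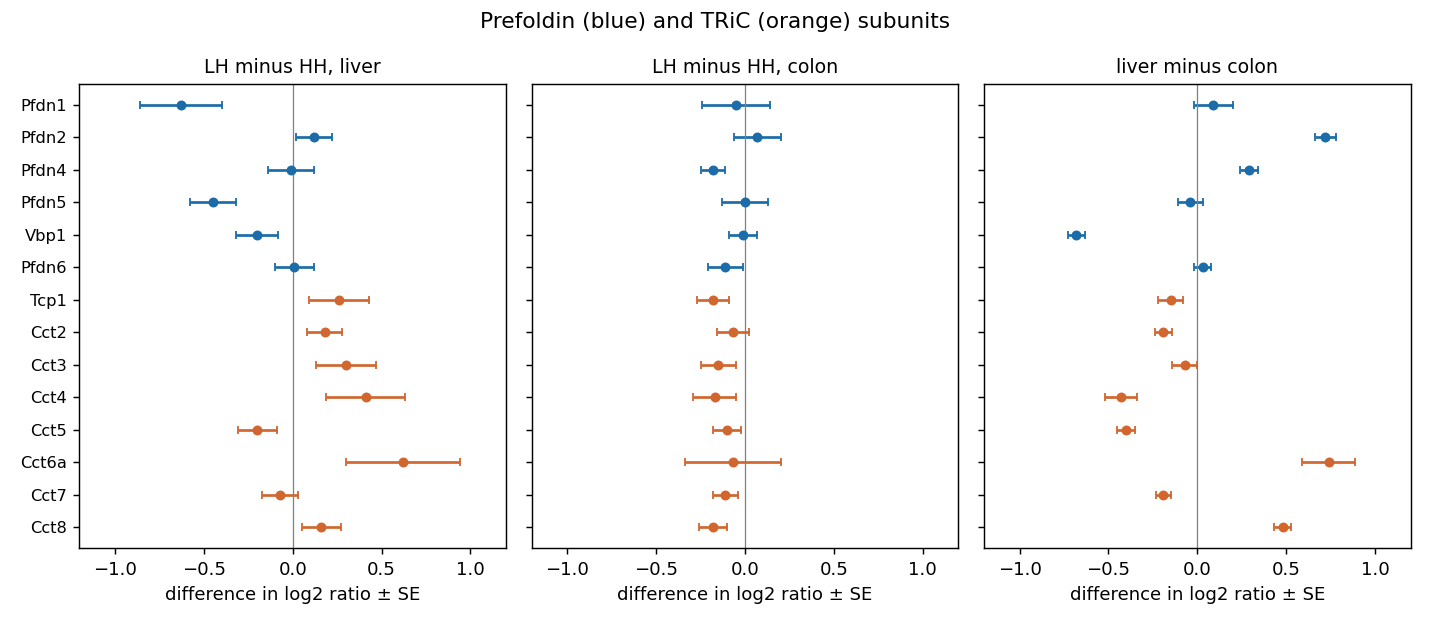
Differences in log2 ratio ± SE (horizontal axis) for 6 prefoldin (blue) and 8 TRiC genes (orange), as LH minus HH in liver and colon and as liver minus colon over all diets. In the liver 4 of the 5 member points lie at or left of 0 and 6 of 8 TRiC points right of it, while the prefoldin and TRiC points of the colon lie between -0.18 and 0.07.

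The clients and the other helpers of this folding path were described from lists of genes. Of 18 measured tubulin and actin genes 0 passed the test for LH against HH in the liver, 2 had an unadjusted p under 0.05, both lower, and the median was -0.03 (0.14 under median centring). The shares of all probes at that threshold were 4.93% lower and 5.66% higher. *Tuba8*, an alpha-tubulin, was at -0.76 ± 0.23 (SE, limma adjusted p = 0.23) and at -0.65 with the repaired background, and *Tubb5*, a beta-tubulin, was at -0.50 ± 0.20 (SE, limma adjusted p = 0.369). In the colon 0 of 18 passed, 9 had an unadjusted p under 0.05 (7 lower, 2 higher) and 6 with the repaired background, against 3.52% of all probes lower and 3.67% higher. *Tubb5* was at -0.29 ± 0.10 (SE, limma adjusted p = 0.548) and *Tuba4a* at -0.32 ± 0.11 (SE, limma adjusted p = 0.548). *Tubb2a* in the liver was at -0.57 ± 0.30 (SE, limma adjusted p = 0.523) and *Tubb2b* in the colon at 0.31 ± 0.11 (SE, limma adjusted p = 0.55), or 0.20 with the repaired background.

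Of 9 genes of the related *Uri1* complex and its partner R2TP 8 were lower in LH in the liver, with a median of -0.12, against 2 lower and a median of 0.13 under median centring. Of the 9 genes 0 passed the test and 3 had an unadjusted p under 0.05, all lower, against the share of 4.93% given above. These were *Polr2e*, a shared subunit of RNA polymerases, at -0.27 ± 0.08 (SE, limma adjusted p = 0.242), and the prefoldin-like *Pdrg1* at -0.35 ± 0.13 (SE, limma adjusted p = 0.339) and *Uxt* at -0.21 ± 0.09 (SE, limma adjusted p = 0.412). In the colon the median was -0.04 and 0 of 9 had an unadjusted p under 0.05. Of 6 chaperones of nascent chains, among them *Hspa8*, the constitutive heat shock protein, and *Naca*, a subunit of the nascent polypeptide-associated complex, 5 were lower in LH in both tissues, with medians of -0.13 in liver and -0.07 in colon and 0 called, and under median centring 2 were lower in liver and 4 in colon. *Hspa8* was at -0.37 ± 0.24 (SE, limma adjusted p = 0.619) in the liver and -0.30 ± 0.14 (SE, limma adjusted p = 0.69) in the colon. The 10 tubulin cofactors and phosducin-like genes had medians of -0.02 in liver and 0.04 in colon (0.19 and 0.08 under median centring), and 0 passed the test or an unadjusted p under 0.05 in either tissue.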

How the data were processed

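RNA of liver and colon was hybridised with a common reference on Agilent mouse arrays. The authors deposited Feature Extraction 10.10.1.1 output per the file headers (the paper names an earlier version) with median spot and background intensity per channel, not normalised, and processed intensity values, background-subtracted and dye-normalised. They also deposited a table of log2 ratios, which matched global loess without background correction with its sign turned to reference over mouse. Of 45018 spots, 43379 were no controls and gave 41174 probes. The accession of 27050 probes was matched to a symbol in the RefSeq table of GRCm38.p6.

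Computations used R 4.3.3 with the packages limma (version 3.58.1) and data.table (version 1.17.8). Ratios were normalised by global loess after a normexp correction with an offset of 50. Flagged spots were left out, spots of a probe averaged, and ratios turned to mouse over reference. Both arrays of 1 HH liver animal were averaged. Each tissue was fitted as 4 groups with lmFit and eBayes, with Benjamini-Hochberg adjustment over all probes with a value in 2 or more mice of each group. A call needed an FDR under 0.05 together with a change of more than 1.5-fold. Single channels were quantile normalised. The fit was tested on simulated data. A gene with several probes is represented by its brightest. Alternatives were the repaired or no background correction, processed signals, the deposited table, median centring, Cy3 alone, slide as a block, a filter on dim probes, means over probes, other fits, array weights, the arrays of the HH animal taken apart, mice with *Xist* left out, and each mouse left out. Cy5 alone and the colon slides taken apart were added after seeing the data.

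Members and lists were chosen with earlier results of these data known. Named genes are all members with every probe, *Pfdn6*, for each member and tissue the 3 genes with the highest Pearson r, and from each list the 3 genes with the lowest p for LH against HH, of which the text gives those of the folding path. The number of mice limits the precision. No protein or probe sequence was used here.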

Additional observations from a re-analysis of the deposited data

Results flagged for a closer look

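In the liver HL group *Pfdn5* (brighter probe) was 0.65 in replicate 4 on the log2 ratio scale, while the other 5 HL mice ran from -0.17 to 0.06, a gap of 0.72 of the range of the group. The dimmer *Pfdn5* probe was also highest in this mouse, at 0.73. It was the 1 outlying mouse among 64 groups of a probe tested, where chance sets apart about 1 group in 20. Cy3 signal of the brighter probe was 12.49 and Cy5 13.02 on this array.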

How the results depend on the processing

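The counts of called members and list genes stayed at 0 in all 12 comparisons. In the liver comparisons the count is no test of the members, which were chosen with liver values known. The counts were also 0 in up to 16 other settings each and with each mouse left out (282 values, lowest and highest 0). In the main fits 0 of 41171 liver and 0 of 41173 colon probes were called. A count of 0 is therefore not particular to these genes. The gap between the highest and lowest member in liver minus colon was 1.40, and 1.33 to 1.5 in other settings and 1.36 to 1.44 with a mouse left out. Of 925 differences of single members in other settings, 15 moved by more than 1 SD between mice, 14 of them under median centring, and 0 of 1645 with a mouse left out. *Pfdn1* for LH minus HH in the liver ranged from -0.72 with processed signals to -0.41 with median centring, and from -0.74 to -0.52 with a mouse left out, and *Pfdn5* from -0.51 to -0.21 and from -0.53 to -0.37. *Vbp1* turned to 0.05 under median centring. *Pfdn4* in the colon ranged from -0.28 with processed signals to -0.06 in Cy3 alone. No paired analysis was possible because the labels carry no replicate numbers shared between groups and do not pair the liver and colon of a mouse. The slide, which held 1 array of each group, was used as a block instead, with the values given above. The fit of only the compared groups could not give the interaction. *Pfdn4*, with a median log2 Cy3 of 6.77 in liver and 7.33 in colon, is the member whose signal over background limits it most.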
